A study of Mus musculus with 19 samples.

Results

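The genes described here are 10 regulators and markers of the epithelial-mesenchymal transition (EMT): the zinc-finger repressors Zeb1, Zeb2, Snai1 and Snai2, the basic helix-loop-helix factors Twist1 and Twist2, the homeobox factor Prrx1, the intermediate filament gene Vim (vimentin) and the cadherin genes Cdh2 (N-cadherin) and Cdh11 (OB-cadherin). They were chosen by name and are 10 of the 51707 genes to which the deposited transcripts could be summed. RNA was sequenced from 2 sorted populations of mouse pancreatic ductal adenocarcinoma: PDPN+ cells, labelled as cancer-associated fibroblasts (CAFs), and EpCAM+ cells, labelled as epithelial. In every group the tumour had grown in the pancreas of a C57BL/6J mouse from transplanted T-LOH KPC organoids, cultures of mouse pancreatic tumour cells, and the mouse had received neratinib, an irreversible inhibitor of ERBB receptor kinases, or vehicle for 2 weeks. The PDPN+ groups held 4 vehicle and 4 neratinib libraries, and the EpCAM+ groups held 6 vehicle and 5 neratinib libraries. Sample names carry a 5-digit number that was taken to identify the mouse, although no label says so. On that reading there were 11 mice, 8 with both populations and 3 with EpCAM+ cells alone, and each library of a group came from its own mouse. Libraries are named below by V (vehicle) or N (neratinib) and that number. Each sort rests on a single surface protein, the tumours come from cultured organoids and not from a tumour that arose in the mouse, and the sources used here give neither the age and sex of the mice nor the number of organoid lines.

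In EMT, epithelial cells loosen their junctions and take on the shape and motility of mesenchymal cells. ZEB, SNAIL and TWIST proteins bind E-box sequences at epithelial genes such as Cdh1 (E-cadherin) and repress them, while vimentin and N-cadherin are common readouts of the mesenchymal state. Fibroblasts are mesenchymal cells and use many of the same genes without any transition, so these genes are at once EMT factors in tumour cells and lineage genes of CAFs.

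Libraries held 33.3 M to 76.9 M assigned reads. Pdpn, the gene of the sorted marker podoplanin, was at 199.7 to 417.7 TPM (a level corrected for transcript length and for library size) in PDPN+ and at 0.349 to 2.52 in EpCAM+ libraries. Epcam was at 0 to 0.540 and at 113.8 to 896.6 TPM in the same order, so both sorting markers followed the labels. Mitochondrial reads were 6.14 to 19.4% of PDPN+ and 2.15 to 2.89% of EpCAM+ reads. On the first principal component within each population, PDPN+ V53175 and V53188 and EpCAM+ V53175, V53176 and N53178 stood apart from the rest. PDPN+ libraries also held mesothelial genes, with Upk3b at 91.3 to 341.4 TPM and Wt1 at 44.1 to 111.2 TPM, and keratins, with Krt8 at 82.5 to 446.7 TPM. Summed over 7 mesothelial markers, some of which epithelial cells share, the level was 1118 to 4129 CPM in PDPN+ and 4585 to 7339 CPM in EpCAM+ libraries. The EpCAM+ sum was mainly Krt19, at a mean of 5100 CPM, and Msln, at 913 CPM, so it does not measure mesothelial cells there. Tested singly with edgeR, 5 of the 7 were higher in PDPN+ cells, as were 24.3% of all tested genes. Of the others 1 was lower and 1 did not pass. Mesothelial cells express several of the 10 genes too, and the part of such cells in the PDPN+ levels was not tested. These are bulk samples, in which fewer cells of a type and less RNA per cell cannot be told apart.

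The sequence that SNAIL and ZEB proteins recognise is the E-box CACCTG, which reads CAGGTG on the other strand. It was searched on both strands in the 250 bases before each start of a gene in the RefSeq promoter table (mouse build GRCm38.p6). A gene was counted if any of its starts held it, and 19.4% of 27025 genes did. Of 25 epithelial genes, a list drawn up as genes repressed in EMT, 18 were in the table and 13 of them (72.2%) held the E-box. As the list was chosen for such repression, its share is a description and no test. Of the 10 genes described here, 6 were in the table (Zeb2, Snai1, Twist1, Twist2, Prrx1 and Vim) and Snai1 alone held it. The windows below were chosen to set a regulator that carries the motif and a mesenchymal marker that lacks it beside 3 epithelial genes that carry it 2 or more times. Each is written 5′ to 3′ on the strand of the gene and ends at the base before the start, with E-boxes in capitals.
Snai1, chr2:167537945-167538194, plus strand: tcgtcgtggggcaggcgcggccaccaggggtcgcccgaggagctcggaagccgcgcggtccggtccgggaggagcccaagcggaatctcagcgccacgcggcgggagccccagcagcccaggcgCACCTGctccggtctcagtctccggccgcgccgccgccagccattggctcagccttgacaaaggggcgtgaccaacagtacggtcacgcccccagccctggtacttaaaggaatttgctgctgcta
Vim, chr2:13574061-13574310, plus strand: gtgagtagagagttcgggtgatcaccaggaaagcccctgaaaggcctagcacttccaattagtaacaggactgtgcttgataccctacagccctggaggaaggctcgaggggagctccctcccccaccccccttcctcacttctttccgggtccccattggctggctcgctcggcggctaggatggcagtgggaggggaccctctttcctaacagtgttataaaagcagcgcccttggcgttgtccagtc
Epcam, chr17:87635729-87635978, plus strand: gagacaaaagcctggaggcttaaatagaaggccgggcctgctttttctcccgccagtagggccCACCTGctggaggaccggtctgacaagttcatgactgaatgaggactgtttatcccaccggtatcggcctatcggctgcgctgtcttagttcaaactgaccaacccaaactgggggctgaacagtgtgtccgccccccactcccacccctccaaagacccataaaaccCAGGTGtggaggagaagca
Ap1m2, chr9:21312334-21312583, minus strand: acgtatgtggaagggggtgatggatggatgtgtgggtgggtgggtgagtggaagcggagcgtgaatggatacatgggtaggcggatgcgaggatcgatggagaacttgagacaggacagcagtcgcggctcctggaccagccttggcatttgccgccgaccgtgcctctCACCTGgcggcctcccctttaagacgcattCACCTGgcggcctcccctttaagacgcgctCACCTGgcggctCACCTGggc
Rab25, chr3:88548280-88548529, minus strand: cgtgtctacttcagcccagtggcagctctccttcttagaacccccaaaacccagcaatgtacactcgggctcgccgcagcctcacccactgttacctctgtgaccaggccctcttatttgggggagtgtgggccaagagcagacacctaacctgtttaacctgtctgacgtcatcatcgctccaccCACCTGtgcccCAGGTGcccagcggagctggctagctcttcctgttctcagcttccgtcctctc
Counted back from the start, with -1 as the last base shown, the first base of the E-box stood at -126 in Snai1, at -187 and -19 in Epcam, the adhesion protein used for the sort, at -81, -51, -21 and -9 in Ap1m2, a subunit of the epithelial basolateral sorting adaptor, and at -64 and -53 in Rab25, an epithelial recycling GTPase. The Vim window held none. A match describes these letters and is not evidence that a factor binds there. None of 10 promoters found for 18 other mesenchymal genes held the motif.

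To ask how far the 2 populations differ in EMT genes, PDPN+ libraries were compared with EpCAM+ libraries. Of the 10 genes, 9 were higher in PDPN+ cells, 0 were lower and Twist2 did not pass, by edgeR's quasi-likelihood test with Benjamini-Hochberg adjustment over all genes. This has to be read against a large difference between the populations as a whole: 49.3% of 19626 tested genes passed, and 24.3% passed as higher in PDPN+ cells. With log2(TPM + 1) in limma the higher genes were 27.1% of those passing, against 49.2% in edgeR, and the median difference of all genes moved from -0.13 to -0.64 on the log2 scale, with 9 of the 10 genes still higher. The median log2 difference of the 10 genes was 5.61. For 8 of the 10 every PDPN+ library exceeded every EpCAM+ library in TPM, a separation seen in 6.64% of 14553 genes with a mean of at least 1 TPM. Snai2 and Twist2 overlapped. Without the 5 libraries that stood apart, 9 of the 10 genes again passed as higher.

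**Figure D1:**
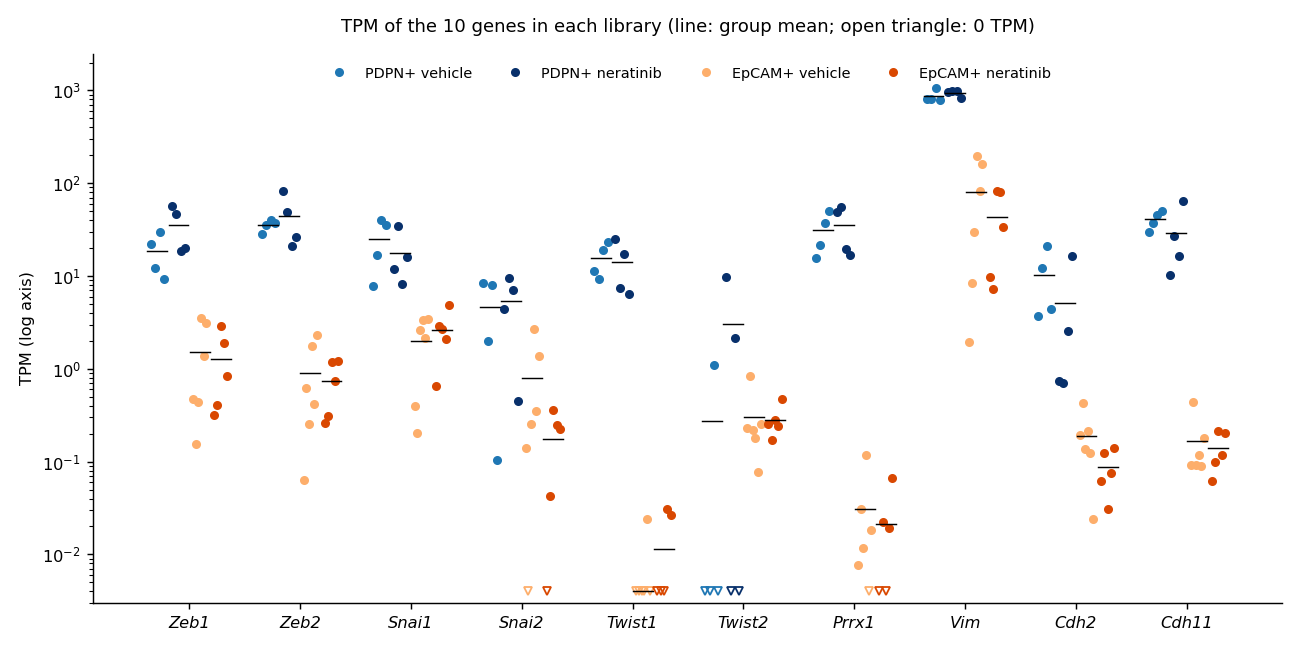
TPM (log axis) of each of the 10 genes in the 19 libraries; each dot is a library, coloured by population and treatment, short lines are group means, and open triangles mark 0 TPM. For every gene except Snai2 and Twist2 all PDPN+ dots lie above all EpCAM+ dots.

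Zeb1 and Zeb2 encode the paired zinc-finger and homeodomain repressors that hold cells in the mesenchymal state and that miR-200 microRNAs keep low in epithelia. Zeb1 was at 9.34 to 57.4 TPM (median 21.01) in the 8 PDPN+ libraries and at 0.153 to 3.49 TPM (median 0.832) in the 11 EpCAM+ libraries. The populations did not overlap, and the log2 difference was 5.10 (SE 0.57, edgeR adjusted p = 6.57e-07). Zeb2 was at 20.98 to 83.2 TPM (median 36.4) in PDPN+ and at 0.0628 to 2.32 TPM (median 0.615) in EpCAM+ libraries, again without overlap. Its log2 difference was 6.12 (SE 0.59, edgeR adjusted p = 1.17e-07). Within libraries the order of the pair by summed TPM differed between populations. Zeb2 exceeded Zeb1 in 8 of 8 PDPN+ libraries, with a mean log2 ratio of TPM of 0.68 (SD 0.69). It did so in 2 of 11 EpCAM+ libraries, with a mean of -0.70 (SD 1.26). The difference between these ratios was not tested. Zeb1 is annotated with 12 transcripts, and its full-length coding Zeb1-201 held 55.4% of the gene's TPM in PDPN+ and 33.2% in EpCAM+ libraries on average. Zeb1-210, annotated as a processed transcript, held 25.7% and 28.0%, so the gene's summed TPM is not all coding RNA. By estimated reads Zeb1-201 held 74.1% and 57.6%.

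Snai1 and Snai2 encode SNAIL and SLUG, which bind E-boxes through their zinc fingers; SNAIL is a short-lived repressor of Cdh1. Snai1 was at 7.83 to 40.2 TPM (median 16.5) in PDPN+ and at 0.205 to 4.89 TPM (median 2.61) in EpCAM+ libraries. The ranges did not overlap, but the gap was narrower than for the ZEB genes, at a log2 difference of 3.66 (SE 0.55, edgeR adjusted p = 1.95e-05). Among EpCAM+ libraries Snai1 was lowest in the 3 that stood apart, V53176 at 0.205, V53175 at 0.397 and N53178 at 0.654 TPM, and at 2.12 to 4.89 TPM in the other 8. Snai2 was at 0.104 to 9.48 TPM (median 5.76) in PDPN+ and at 0 to 2.70 TPM (median 0.247) in EpCAM+ libraries. PDPN+ V53188 at 0.104, N53194 at 0.445 and V53179 at 2.02 TPM lay within the EpCAM+ range, whose top was V53185. Snai2 passed over both treatments with a log2 difference of 4.32 (SE 1.00, edgeR adjusted p = 0.00149), while vehicle libraries alone gave 3.03 (SE 1.30, edgeR adjusted p = 0.0814) and neratinib libraries alone 5.60 (SE 1.55, edgeR adjusted p = 0.00799). In vehicle libraries Snai2 passed without EpCAM+ V53185 (edgeR adjusted p = 0.0457). In that vehicle comparison 33.1% of all tested genes passed and 8 of the 10 genes were higher, and in the neratinib comparison 38.9% passed and 9 were higher. SLUG RNA was below SNAIL RNA in all 9 EpCAM+ libraries with both, and in 7 of 8 PDPN+ libraries.

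Twist1 and Prrx1 showed the widest gaps among the 10 genes by edgeR's estimates, which differed from each other by less than their SE. Twist1 encodes a basic helix-loop-helix factor of the neural crest and of mesenchyme. It was at 6.46 to 24.9 TPM (median 14.3) in PDPN+ libraries and at 0 in 8 of 11 EpCAM+ libraries, with 1 read in each of V53188, N53193 and N53194. That is 3 reads in all EpCAM+ libraries against 4240 in the PDPN+ ones, a ratio per scaled library of 2889 with an exact 95% interval of 988 to 14020 that covers counting error only. Prrx1, a homeobox factor of limb and fibroblast mesenchyme, followed a like pattern at 15.5 to 54.8 TPM (median 29.3) in PDPN+ and 0 to 0.118 TPM (median 0.0185) in EpCAM+ libraries. No library of either population came near the other range. The log2 difference of Prrx1 was 10.52 (SE 0.76, edgeR adjusted p = 2.58e-09). Of its 5 transcripts, a processed transcript held 46.9% of its PDPN+ TPM and the coding Prrx1-201 and Prrx1-204 held 31.4% and 18.5%, while by estimated reads the processed transcript held 19.7%.

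Twist2, the paralogue of Twist1, did not differ by the test, with a log2 difference of 0.95 (SE 1.10, edgeR adjusted p = 0.501). Its summed value joined 2 transcripts that were never found in the same library. Twist2-201 had 301 reads in PDPN+ N53178, 89 in N53184 and 46 in V53185, 0 in the other 5 PDPN+ libraries and 0 in all 11 EpCAM+ libraries. Twist2-202 had 0 reads in all 8 PDPN+ libraries and 269.3 in the EpCAM+ ones, 7 to 74.5 in each. The gene Twist2 overlaps Gm29100, a gene annotated on the opposite strand, which had 453 reads in EpCAM+ libraries (12 to 131 in each) and 0 in PDPN+ libraries. Overlap was taken from whole genes and the strand setting is unknown, so some Twist2-202 reads could belong to Gm29100. Whether the transcript itself overlaps Gm29100 was not tested. Other annotated genes also overlap members, among them Zeb2os opposite Zeb2, with 947 PDPN+ and 68 EpCAM+ reads, so a part of the reads of either could belong to the other. Counted on Twist2-201 alone, Twist2 RNA was found in 3 of 8 PDPN+ libraries, in each of which Twist1 was the higher of the pair by TPM.

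**Figure D2:**
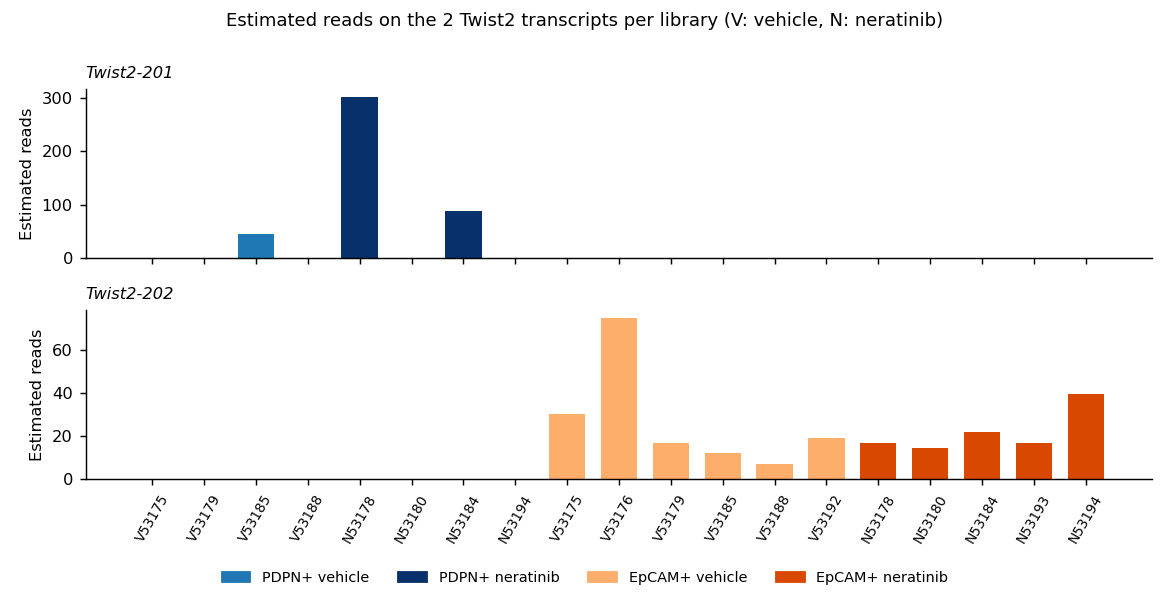
Estimated reads per library (bars) on the transcripts Twist2-201 (top) and Twist2-202 (bottom), with PDPN+ libraries in blue and EpCAM+ libraries in orange. Twist2-201 appears in 3 PDPN+ libraries and Twist2-202 in all 11 EpCAM+ libraries, with no library holding both.

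Vim, the main intermediate filament of mesenchymal cells, had the highest TPM of the 10 genes in every group. It was at 787.2 to 1064 TPM (median 892.5) in PDPN+ libraries and at 1.93 to 194.4 TPM (median 34.1) in EpCAM+ libraries. The highest EpCAM+ library, V53185, stayed below the lowest PDPN+ library, and the log2 difference was 4.44 (SE 0.65, edgeR adjusted p = 1.53e-05). Vim was the steadiest of the 10 genes in PDPN+ cells, with a coefficient of variation over libraries of 11.9% against a median of 73.1% over 13903 genes with a mean of at least 1 TPM. In EpCAM+ cells it was variable, at 103.5% against a median of 26.3% over 13350 genes, and its highest library exceeded its lowest 101-fold. The coding Vim-201 held 53.5% of the PDPN+ and 49.1% of the EpCAM+ TPM of the gene, or 73.4% and 63.0% of its estimated reads. Vim-203, annotated as a retained intron, held 30.4% and 20.4% of TPM.

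Cdh2 and Cdh11 encode classical cadherins of mesenchymal cells, N-cadherin and OB-cadherin. Cdh2 was at 0.702 to 21.2 TPM (median 4.07) in PDPN+ and at 0.0242 to 0.428 TPM (median 0.125) in EpCAM+ libraries. The ranges did not meet although PDPN+ N53180 at 0.702 and N53178 at 0.740 TPM came near the EpCAM+ maximum, and the log2 difference was 6.36 (SE 0.70, edgeR adjusted p = 6.18e-07). Cdh11 was at 10.2 to 63.6 TPM (median 33.6) in PDPN+ and at 0.0619 to 0.439 TPM (median 0.117) in EpCAM+ libraries. With a log2 difference of 8.24 (SE 0.47) it had the smallest adjusted p of the 10 genes, 1.19e-10 by edgeR. Cdh11 exceeded Cdh2 in 8 of 8 PDPN+ libraries, with a mean log2 ratio of TPM of 2.87 (SD 1.34), so OB-cadherin RNA was the more abundant of the pair per transcript. The EpCAM+ reads of Cdh2 lay mainly on Cdh2-202, which held 87.7% of the gene's TPM there and 28.2% in PDPN+ libraries, where Cdh2-201 held 71.4%. Per library the share of Cdh2-202 ran from 0 to 100% in EpCAM+ and from 0 to 87.0% in PDPN+ cells. Cdh2 had only 231 reads over all EpCAM+ libraries, which limits this share and the ratio to Cdh1 below. The E-cadherin gene Cdh1 was at 175.4 to 930.2 TPM in EpCAM+ and at 0 to 1.98 TPM in PDPN+ libraries. The mean log2 ratio of Cdh2 to Cdh1 was -12.22 (SD 1.75, n = 11) in EpCAM+ cells and 4.94 (SD 3.57) over the 5 PDPN+ libraries in which Cdh1 was above 0.

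By mean TPM within groups, Vim stood first in all 4 groups. Its 1-SD range was clear of the next gene in PDPN+ vehicle, PDPN+ neratinib and EpCAM+ neratinib libraries, but not in EpCAM+ vehicle libraries, where it was 79.8 ± 81.6 TPM (SD, n = 6). In PDPN+ vehicle libraries Cdh11 (40.9 ± 9.21 TPM, SD, n = 4), Zeb2 (35.3 ± 5.08), Prrx1 (31.0 ± 15.6), Snai1 (25.1 ± 15.3), Zeb1 (18.5 ± 9.43) and Twist1 (15.8 ± 6.64) followed. Cdh2 (10.4 ± 8.17), Snai2 (4.63 ± 4.203) and Twist2 (0.275 ± 0.550) were lowest. Each of these neighbours overlapped the next within 1 SD, so their order is not resolved. In EpCAM+ vehicle libraries Snai1 (2.01 ± 1.41 TPM, SD, n = 6) was next after Vim, followed by Zeb1 (1.504 ± 1.45) and Zeb2 (0.902 ± 0.912).

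The level left in EpCAM+ cells differed widely among the 10 genes. As a percentage of the PDPN+ mean in CPM (reads of a gene scaled to the size of its library), the EpCAM+ mean was 0.0336% for Twist1, 0.0658% for Prrx1 and 0.330% for Cdh11. It was 1.30% for Cdh2, 1.44% for Zeb2 and 2.72% for Zeb1. Vim stood at 4.96%, Snai2 at 6.82% and Snai1 at 7.80%. Medians over libraries in place of means gave 2.64% for Vim, 2.93% for Snai2, 12.9% for Snai1 and 0.041% for Prrx1, and without EpCAM+ V53185 Snai2 was at 4.00%. Twist2 stood at 25.0%, on different transcripts as above. Over 12 fibroblast marker genes the same percentage ran from 0.0855 to 5.89% with a median of 0.287%, Col1a1 being at 0.374%, Pdgfra at 0.174% and Col6a1 highest. Twist1 and Prrx1 therefore lay below every fibroblast marker listed, Cdh11 lay among them, and Vim, Zeb1, Zeb2 and Cdh2 lay above 11 of the 12. Over 11 macrophage and monocyte markers it ran from 6.13 to 254.5%, with Ptprc (CD45) highest at a mean of 2.62 TPM in EpCAM+ libraries. The summed fibroblast markers were at 31.5 to 414.0 CPM in EpCAM+ and 32870 to 52930 CPM in PDPN+ libraries, and the summed macrophage and monocyte markers at 39.4 to 93.3 and 65.6 to 755 CPM. Macrophages express Vim and Zeb2. The part of carried-over fibroblasts and leukocytes in the EpCAM+ levels was not tested. Computed from TPM, the value of Zeb1 was 5.17%.

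**Figure D3:**
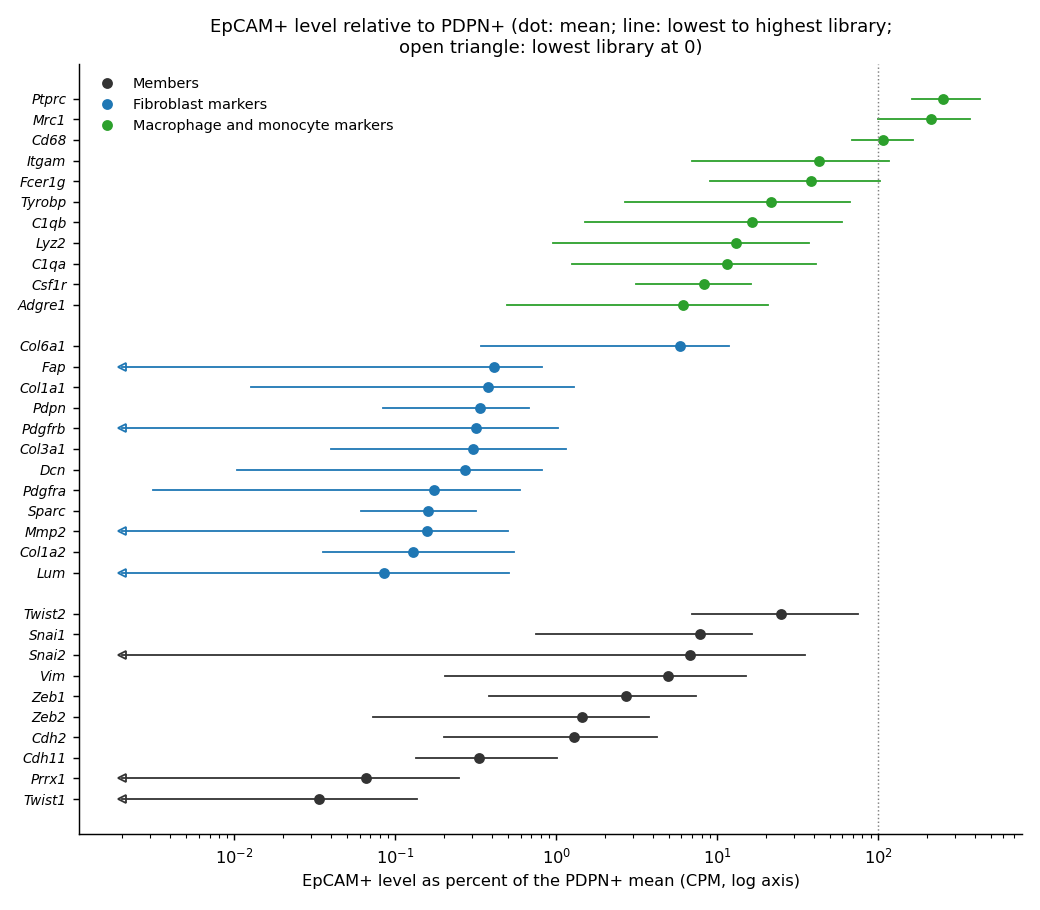
EpCAM+ level of each gene as a percentage of its PDPN+ mean in CPM (log axis), for the 10 genes and for the fibroblast and the macrophage and monocyte markers; dots are means of 11 EpCAM+ libraries, lines run from the lowest to the highest library, and open triangles mark a lowest library at 0. Twist1 at 0.0336% and Prrx1 at 0.0658% lie left of all fibroblast markers, and Vim at 4.96% lies right of all except Col6a1.

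EpCAM+ libraries differed from each other in Vim, and the ZEB genes were compared with it there. The 3 EpCAM+ libraries that stood apart had Vim at 1.93, 8.47 and 9.79 TPM, and Zeb1 at 0.470, 0.153 and 0.316 TPM, in the order V53175, V53176, N53178. Because they form a separate cluster, relations were computed over the other 8, on log2 CPM, for 6 measures chosen after the values had been seen. Vim and Zeb1 varied together, with Pearson's r of 0.889 (exact permutation p = 0.00206, adjusted over the 6 relations 0.0124) and Spearman's rho of 0.857 (exact permutation p = 0.0107, adjusted 0.0642), so the rank relation did not pass after adjustment. Since the measures were picked with the values known, these p-values describe the pattern and are no independent evidence for it. V53185 and V53192 were highest in both, with Vim at 194.4 and 160.6 TPM and Zeb1 at 3.49 and 3.09 TPM, and N53180 was lowest in both at 7.29 and 0.411 TPM. Without the 2 libraries farthest from the median of Vim, r was 0.888, and after subtracting treatment means it was 0.943. Zeb2 gave r = 0.718 (exact permutation p = 0.0442, adjusted 0.133) and rho = 0.690 (exact permutation p = 0.0694, adjusted 0.208), which did not pass. Snai1 gave r = -0.0942 (exact permutation p = 0.818) and rho = 0.0238, and Cdh1 gave r = -0.163 (exact permutation p = 0.700) and rho = 0.0238. The summed fibroblast markers gave r = 0.386 (exact permutation p = 0.349) and rho = 0.333, but r = 0.960 without the 2 farthest libraries. N53180 was farthest, while N53194 and V53179 were nearly tied for next, with Vim at 2.59% and 2.58% of the PDPN+ mean. N53194 had the most fibroblast marker RNA, so the 0.960 depends on which of these was left out and shows no relation. The summed macrophage and monocyte markers gave r = 0.196 (exact permutation p = 0.648) and rho = 0.0238. Summed markers of acinar cells, the enzyme-secreting cells of the pancreas, followed Vim in part. They were at 85.96, 312.7 and 107.6 CPM in V53185, V53192 and V53188, the 3 of these libraries with the most Vim. In N53180, V53179 and N53194, the 3 with the least, they were at 8.71, 6.80 and 5.82 CPM. N53184 and N53193 had 21.97 and 11.87 CPM, although their Vim, at 81.8 and 81.3 TPM, was near the 83.3 TPM of V53188. The 3 highest in acinar markers were all vehicle libraries, and V53179, low in them, was vehicle too. The part of acinar cells and of treatment in the relation was not tested. In V53185 Vim reached 15.0% of the PDPN+ mean and Zeb1 7.35% while the summed fibroblast markers reached 0.563%. In V53192, next in Vim at 12.2%, the fibroblast markers reached 0.729%. N53194 had the most fibroblast marker RNA, at 1.05%, followed by V53192 and V53185, and its Vim was at 2.59%.

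**Figure D4:**
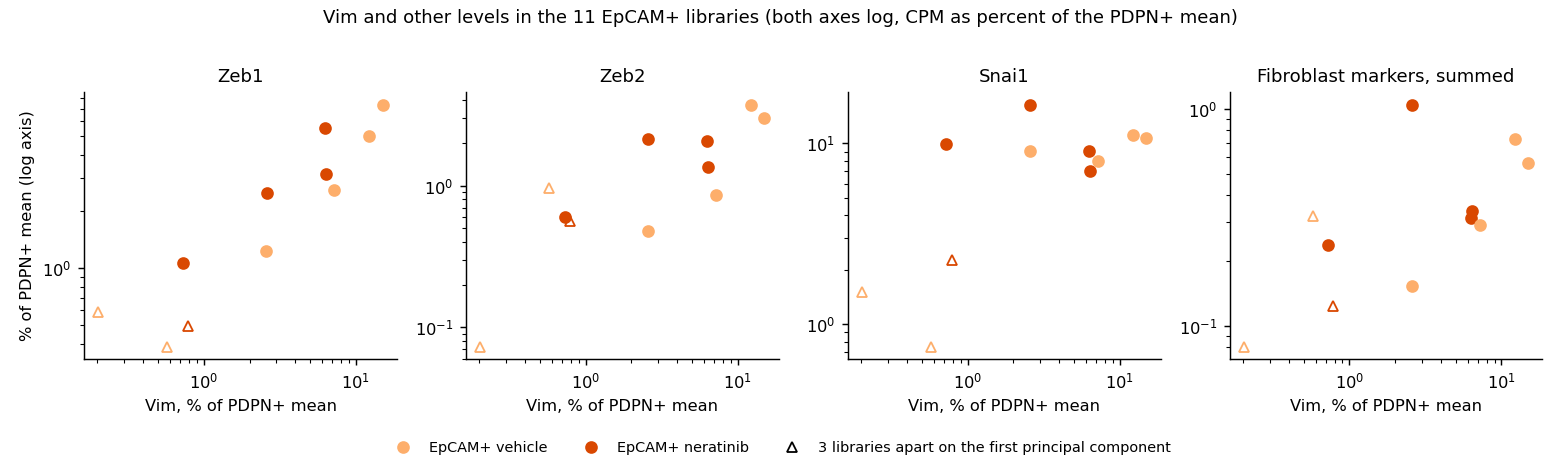
Zeb1, Zeb2, Snai1 and summed fibroblast markers (vertical, log axis) against Vim (horizontal, log axis) in the 11 EpCAM+ libraries, all as percent of the PDPN+ mean CPM; filled circles are the 8 libraries used for the relations and open triangles the 3 that stood apart. Zeb1 has r = 0.889 with Vim over the 8 and Snai1 has r = -0.0942.

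To ask whether ERBB inhibition changed these genes, neratinib and vehicle libraries of the same population were compared. In PDPN+ cells 9 of the 10 genes were tested, Twist2 falling under the low-count filter, and 0 passed; 0 of 14437 genes passed in all (0.0%), with 331 at an unadjusted p under 0.05 by edgeR and 76 passing by DESeq2, none of them among the 10. Zeb1 alone of the 9 had an unadjusted p under 0.05. It was at 22.2, 12.3, 30.0 and 9.34 TPM in V53175, V53179, V53185 and V53188, and at 57.4, 47.0, 18.4 and 19.8 TPM in N53178, N53180, N53184 and N53194. The upper neratinib libraries lay above all vehicle ones, whereas the lower pair lay between them, so the groups overlapped in TPM. In CPM scaled within PDPN+ libraries they just separated, with the lowest neratinib library at 77.21 and the highest vehicle library at 77.1. In CPM scaled over all 19 libraries they overlapped, at 81.5 and 84.7 in the same order. The log2 difference was 1.12 (SE 0.38, edgeR adjusted p = 1.00) and stayed between 0.87 and 1.30 when each library was left out in turn. Its unadjusted p was no longer under 0.05 without the libraries that stood apart, in the fit of all 19 libraries, or with log2(TPM + 1) in limma. In those PDPN+ libraries Zeb2 changed by 0.23 (SE 0.42), Prrx1 by 0.27 (SE 0.40), Vim by 0.23 (SE 0.22) and Twist1 by -0.08 (SE 0.89) on the log2 scale, none past the test. Cdh11 at -0.52 (SE 0.46), Cdh2 at -0.90 (SE 1.00), Snai1 at -0.43 (SE 0.74) and Snai2 at 0.38 (SE 1.36) did not pass either. Cdh2 was at 0.740, 0.702, 2.56 and 16.5 TPM in N53178, N53180, N53184 and N53194 and at 3.69, 12.1, 21.2 and 4.44 TPM in the vehicle libraries in the order above. N53194 stood above the other neratinib libraries, and without it the log2 difference was -2.54, which did not pass.

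In EpCAM+ cells 8 of the 10 genes were tested, Twist1 and Prrx1 being too low, and 0 passed; 0 of 17200 genes passed in all (0.0%), with 524 at an unadjusted p under 0.05 by edgeR and 15 passing by DESeq2, none of them among the 10. Vim was at 1.93 to 194.4 TPM (median 56.6) in the 6 vehicle libraries and at 9.79, 7.29, 81.8, 81.3 and 34.1 TPM in N53178, N53180, N53184, N53193 and N53194. The neratinib values lay inside the vehicle range, with a log2 difference of -0.92 (SE 0.99). Snai2 was at 0 to 2.70 TPM (median 0.304) in vehicle libraries and at 0, 0.0424, 0.358, 0.247 and 0.225 TPM in the neratinib libraries in the same order. V53185 at 2.70 and V53192 at 1.38 TPM alone lay above all neratinib libraries, and the log2 difference of -2.18 (SE 1.18, edgeR adjusted p = 0.999) did not pass. Cdh2 at -1.20 (SE 0.61), Snai1 at 0.36 (SE 0.66), Cdh11 at -0.37 (SE 0.52), Zeb1 at -0.16 (SE 0.79), Zeb2 at -0.20 (SE 0.78) and Twist2 at -0.18 (SE 0.54) did not pass. A standard error near 1 leaves room for changes of several fold in either direction, so these values do not show that neratinib left the genes as they were. In TPM the treatments separated without overlap for no gene of the 10 in either population. They did so for 2.79% of genes in PDPN+ and 0.404% in EpCAM+ cells. In CPM scaled within PDPN+ libraries Zeb1 just separated, as given above. The neratinib effect in PDPN+ minus that in EpCAM+ cells passed for 0 of the 10 genes and for 0.0662% of 19626 genes (13 genes by edgeR, 2190 at an unadjusted p under 0.05, and 691 by DESeq2 with 0 of the 10 among them). Zeb1 gave 1.29 (SE 1.02), Vim 1.15 (SE 1.19) and Snai2 2.57 (SE 1.89) for this difference on the log2 scale.

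**Figure D5:**
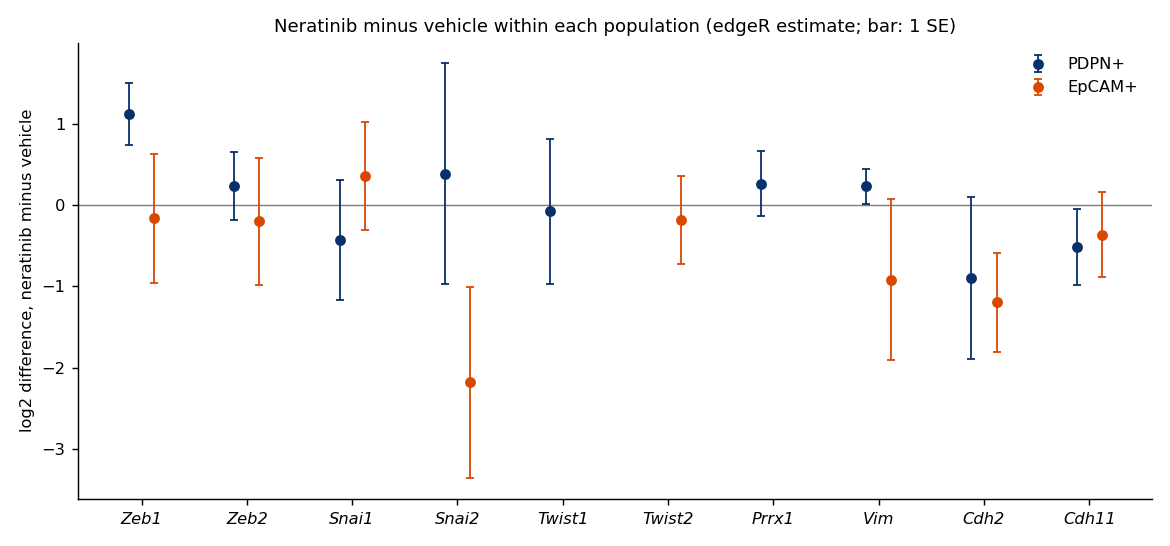
Log2 difference, neratinib minus vehicle, of each tested gene within PDPN+ (blue) and EpCAM+ (orange) cells; dots are edgeR estimates and bars 1 SE. Zeb1 in PDPN+ cells, at 1.12, lies farthest from 0 relative to its SE, and no gene passed the test.

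Other genes of the programme were followed in lists chosen for their roles, with earlier results of these data known. Among further EMT transcription factors 15 of 18 were tested, of which 5 were higher and 6 lower in PDPN+ cells and 4 did not pass, against 9 higher and 0 lower among the 10 genes above. Tcf4, an E-protein partner of TWIST, was higher with a log2 difference of 2.30 (SE 0.24). Hmga2, an architectural chromatin factor, was lower at 0.0387 to 1.44 TPM in PDPN+ and 10.8 to 44.7 TPM in EpCAM+ libraries. Snai3, the remaining SNAIL-family gene, had 0 reads in all 8 PDPN+ libraries and 2004 in EpCAM+ libraries, at least 327-fold higher in EpCAM+ against a floor of 3 reads over the PDPN+ group. The family thus split, with Snai1 and Snai2 higher in PDPN+ and Snai3 found only in EpCAM+ libraries. Among 14 corepressors and inhibitors of these factors, 3 were higher, 3 lower and 8 did not pass, a smaller share than the 49.3% of all genes, so the list as a whole does not stand out. Id3 and Id4, inhibitors of basic helix-loop-helix factors, were higher at 3.89 (SE 0.23) and 5.86 (SE 0.85), while Id2 was lower at -2.21 (SE 0.27). Of 9 genes for the turnover of SNAIL and related proteins, 0 were higher, 3 were lower and 6 did not pass, again a smaller share than among all genes, with Fbxl5, a ubiquitin ligase subunit, at -3.03 (SE 0.46).

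The epithelial genes on the other side of the programme were low in PDPN+ cells. All 24 tested genes of the list of 25 repressed in EMT passed as lower, against 4912 of 19626 among all genes. The list includes Epcam, on which the EpCAM+ cells were sorted, and other epithelial markers, so its direction follows from the sort. The median log2 difference was -7.99 against -0.13 for all genes. Among the 24, Muc1 was at -8.40 (SE 0.34), Crb3 at -12.87 (SE 0.72) and Krt8 at -3.56 (SE 0.27). Of 12 factors that maintain the epithelial state, 11 passed as lower and Grhl1 did not. Ovol1, a repressor of Zeb1, had 1 read in PDPN+ and 67383 in EpCAM+ libraries, and Esrp1, an epithelial splicing factor, had 2 and 59707 reads. Grhl2, a grainyhead factor, was at 0.00727 to 0.177 TPM in PDPN+ and 10.7 to 31.2 TPM in EpCAM+ libraries. Each of these was well above the level of Zeb1 in the EpCAM+ libraries. Of 18 other mesenchymal genes, 16 were higher in PDPN+ and 2 lower. Sparc at 9.32 (SE 0.44), Pdgfra at 9.09 (SE 0.64) and Acta2 at 7.67 (SE 0.51) were higher, whereas Nt5e and Cd44, surface proteins of both carcinoma and stroma, were lower at -2.53 (SE 0.75) and -0.91 (SE 0.19). Fn1, the fibronectin gene, differed by 1.28 (SE 0.44, edgeR adjusted p = 0.0206), and its EpCAM+ mean was 41.1% of the PDPN+ mean, far from the 4.96% of Vim. Of 9 other cadherins tested, Cdh3 was higher, 6 including Cdh1, Cdh6 and Cdh17 were lower and 2 did not pass. All 5 catenins tested, the cytoplasmic partners of cadherins, were lower, with Ctnna1 at -1.96 (SE 0.17), and of 9 other filament genes Des was higher and Krt8 and Krt18 lower, in all 2 higher and 3 lower. In the neratinib comparisons 0 genes of any of these lists passed.

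Genes whose profile over libraries was most like that of a member were ranked by Pearson's r of log2 CPM, among genes with a mean of at least 1 CPM in the population. Over the 8 PDPN+ libraries and 14197 genes the nearest were Dchs1 for Zeb1 (0.976), Tnks1bp1 for Zeb2 (0.964), D430019H16Rik for Snai1 (0.953), Foxs1 for Snai2 (0.974), Gm5822 for Twist1 (0.969), Recql4 for Twist2 (0.996, with Twist2 at 0 in 5 libraries), Bicc1 for Prrx1 (0.982), Rpl13a for Vim (0.957), Vrk2 for Cdh2 (0.961) and Slc16a1 for Cdh11 (0.957). Over the 11 EpCAM+ libraries and 13230 genes they were Pla2r1 for Zeb1 (0.967), Fmnl3 for Zeb2 (0.933), Tmem231 for Snai1 (0.982) and Jcad for Vim (0.951). With so few libraries and so many genes, high values are easily reached, and the libraries that stood apart are included, so these names are a description of these samples.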

How the data were processed

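RNA of sorted PDPN+ and EpCAM+ cells was sequenced from low-input libraries. Per the submitters' processing notes the authors used Salmon 1.9.0 with build GRCm39 (mm39); the sources used here give neither the transcriptome release nor the strand setting. Per the file headers each deposited table lists, per transcript, an estimated count and a TPM value. Of 147828 transcripts, 137063 had an identifier in GENCODE M21, which joined them into 51707 genes; the unmatched took 1.77 to 8.96% of reads.

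Summed estimated counts were rounded and tested with edgeR 4.0.16 (R 4.3.3; TMM scaling, its default low-count filter, robust quasi-likelihood test, Benjamini-Hochberg adjustment over all tested genes, threshold 0.05). Populations were compared in a fit of all 19 libraries, averaged over treatments and within each, and neratinib with vehicle within each population. Alternatives were DESeq2 1.42.0, limma 3.58.1 (voom, or log2(TPM + 1) for genes with a mean of at least 1 TPM), other scaling, no filter, mouse as a block, and libraries left out. The edgeR steps were run on simulated data with changes put into some genes. For neratinib in PDPN+ cells they recovered 0 of 67 genes changed 2-fold, 6 of 67 changed 4-fold and 23 of 66 changed 16-fold. In EpCAM+ cells they recovered 17 of 67, 45 of 67 and 61 of 66, and between the populations 5 of 67, 14 of 67 and 48 of 66. Only the genes counted here were changed. Between the populations 9673 of 19626 genes passed in the data, so the adjustment was stricter in the simulation. Its rates between the populations therefore do not describe that comparison. Most such changes were thus missed in PDPN+ cells, so 0 genes passing there does not show that none changed. Percentages of the PDPN+ mean used TMM-scaled CPM. Log2 CPM had 0.1 added for the principal components, the correlations of same-numbered libraries and the genes most alike, but not for the relations with Vim. Depth was 30.3 M to 75.4 M reads on genes, so 3 reads equal 0.0376 to 0.110 CPM. Intervals cover counting error only, since the reads carry no molecular identifiers here. Since no label states that the samples are separate mice, p-values measure only the spread between these samples, which may be partly technical.

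Named were all 10 genes, up to 3 genes of each list with the smallest p between the populations, set marker genes, and the genes most alike by Pearson's r; other genes (such as Upk3b, Wt1, Nt5e, Cd44, Cdh3, Grhl1) were named after their values were seen. The members and lists were chosen with earlier results of these data known.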

Additional observations from a re-analysis of the deposited data

Results flagged for a closer look

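In 40 groups of 4 to 6 libraries, 1 for each gene and group, the highest or lowest library was tested for its gap to the nearest other as a share of the group's range (Dixon's 95% limit), and 7 exceeded the limit. For normally distributed values chance gives about 1 in 20. TPM values need not be so distributed, and in a group at 0 except for 1 library the gap is the whole range. The 7 therefore cannot be read against that rate. Twist1 in EpCAM+ vehicle libraries was at 0.024 TPM in V53188, a single read, and at 0 in the others. Prrx1 in the same group was highest in V53185 at 0.118 TPM, the library that also had the highest EpCAM+ Vim and Zeb1. Twist2 and Cdh11 in EpCAM+ vehicle libraries were highest in V53176, at 0.829 and 0.439 TPM, which is among the 3 EpCAM+ libraries that stood apart. In PDPN+ vehicle libraries V53185 was highest in Vim, at 1060 TPM against 787 to 806, and was the library with Twist2 reads, at 1.1 TPM. Cdh2 in PDPN+ neratinib libraries was highest in N53194 at 16.5 TPM, against 0.702 to 2.56 TPM in the other 3.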

How the results depend on the processing

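The 9 genes higher in PDPN+ cells passed over both treatments in every alternative run. The count of 8 of 10 that separated the populations was recomputed with CPM and with each library left out, and was 8 in each. All genes passing numbered 9673, or 9040 to 10632 with each library left out. Twist2 had no stable sign: over both treatments it was -1.74 with voom, -2.37 with the replicate block and -2.27 to 1.29 with each library left out. In vehicle libraries it was 0.56 without the libraries that stood apart and -7.46 (edgeR adjusted p = 0.0277) without PDPN+ V53185, and in neratinib libraries -1.16 with voom and -0.63 with the block. Snai2 passed in vehicle libraries with DESeq2 (adjusted p = 0.0402), and in neratinib libraries missed with voom (adjusted p = 0.0556) and the block (edgeR adjusted p = 0.0848).

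No paired analysis was possible because no mouse received both treatments, for the neratinib comparisons. For the populations, deviations of same-numbered libraries correlated at -0.204 to 0.036 and 1 of 8 mice was best with its own number. Same-numbered libraries hold different cell populations, so low correlation cannot show whether they came from the same mouse. The main fit did not take the number into account. A fit with mouse as a replicate block also left out the 3 mice with EpCAM+ cells alone. In it 2350 genes passed in vehicle and 3014 in neratinib libraries, against 6487 and 7627 in the main fit. Whether the block or the left-out mice lowered the counts was not tested. The block was added after seeing the data for the difference of neratinib effects, where 0 genes passed (428 at an unadjusted p under 0.05 by edgeR).

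For neratinib in PDPN+ cells 111 genes passed in the fit of 19 libraries, 76 with DESeq2 and 1 with limma on TPM, and in EpCAM+ cells 15 with DESeq2, with 0 of the 10 genes among them. The difference of effects gave 13 genes, 691 with DESeq2, 4 with voom, 1 with limma on TPM, 314 without the libraries that stood apart and 9 to 131 with each left out; PDPN+ V53188 (131), V53175 (127), N53194 (59), N53178 (28), V53185 (23) and N53184 (21) moved it most. The cause was not tested.

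Values near 0 changed sign. For neratinib in PDPN+ cells Twist1 was 0.0341 with voom and 0.35 without the libraries that stood apart, and leaving out each library gave -0.54 to 0.33 for Twist1, -0.29 to 0.44 for Zeb2, -0.0447 to 1.08 for Snai2 and -0.0213 to 0.49 for Prrx1. In EpCAM+ cells voom gave 0.10 for Zeb2, 0.43 for Twist2 and 0.11 for Cdh11, and without the libraries that stood apart Twist2 was 0.63 and Cdh11 0.36. Leaving out each library gave -0.70 to 0.37 for Zeb1, -0.45 to 0.34 for Zeb2, -0.42 to 0.48 for Twist2 and -0.58 to 0.25 for Cdh11. For the difference of effects voom gave -0.0551 for Zeb2, -0.0783 for Prrx1 and -1.36 for Cdh2, the block -0.91 for Zeb2 and -0.64 for Cdh2, limma on TPM -1.21 for Cdh2, and the fit without the libraries that stood apart -1.02 for Cdh2. Leaving out each library gave -0.0806 to 0.68 for Zeb2, -0.99 to 1.12 for Prrx1, -1.40 to 0.81 for Cdh2 and -0.79 to 0.13 for Cdh11. None of these passed.

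As a percentage of the PDPN+ mean, Zeb1 was 5.17% by TPM, Snai1 12.9%, Vim 2.64%, Snai2 2.93% and Prrx1 0.041% by medians, and with each library left out Snai2 was 4.00 to 7.74% and Twist2 19.98 to 96.0% (the highest without PDPN+ N53178). With 0.1 TPM added the log2 ratio of Twist2 to Twist1 in PDPN+ libraries was -5.23, against -2.82. By estimated counts Zeb1-201 held 57.6% in EpCAM+, the processed Prrx1 transcript 19.7% in PDPN+ and Vim-201 73.4% and 63.0% in PDPN+ and EpCAM+ libraries. Depth limits Twist1, Twist2, Prrx1 and Snai2 in EpCAM+ cells, where libraries held few or no reads. It also limits Cdh2 and Cdh11 there, with 231 and 344 reads over all EpCAM+ libraries.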
